A study of Mus musculus with 8 samples.

Results

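The epididymal fat of mice made obese by a high-fat diet and then treated with candesartan was compared with that of mice on chow, gene by gene. The comparison used the samples titled HFD+Can-1 and HFD+Can-2 against Control-1 and Control-2, which are 4 of the 8 arrays of the series, 2 mice per group and 1 array per mouse. Of 45101 probe sets on the array, 34945 carried a single gene symbol, and 11232 genes had a probe set bright enough to be tested. All mice were male C57BL/6J, bought at 6 weeks of age. Chow mice were fed for 24 weeks on a diet that drew 10% of calories from fat. The other mice ate a high-fat diet (HFD) with 30% of calories from fat over the same time, and the candesartan group then received about 3 mg/kg of candesartan per day in the drinking water for the next 5 weeks. The labels do not say whether the chow mice were kept for those weeks, so treated and chow mice may also differ in age and in time on the diet. The sample entries used here give no further weeks for the untreated HFD mice either. Treated and untreated HFD mice may thus differ in the same way. The HFD mice without a drug served as the measure of what the diet did alone, and a telmisartan group, treated in the same way, contributed to the estimate of spread. No chow mice received candesartan, so the drug was measured here on the high-fat background only, and body weights were not analysed here. Because each array came from a different mouse, the spread between replicates covers differences between mice, with 2 mice to estimate it in each group.

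Candesartan blocks the type 1 angiotensin II receptor, the main receptor through which angiotensin II constricts vessels, releases aldosterone and promotes inflammation. Adipocytes make angiotensinogen, the precursor of angiotensin II, so fat holds a renin-angiotensin system of its own. In obesity the epididymal pad gains macrophages that gather around dying adipocytes, take up their lipid in enlarged lysosomes and carry CD11c, while resident macrophages with scavenger and lectin receptors lose ground and genes of lipid synthesis in adipocytes fall.

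The tissue label was checked against marker genes. The mean signals of the adipocyte genes Adipoq, Lep, Fabp4, Cidec and Lipe lay at percentiles 99.1 to 99.998 of all probe sets, and that of Pparg at 96.5. Of 22 epididymis and testis markers, 18 were too dim to be tested and 4 had no probe set with 1 symbol. Signals are linear intensities after each array was scaled to the same 2%-trimmed mean. On the main axis of variation over all genes, which held 53.1% of the variance, the candesartan arrays lay at 9.93 and 17.3, beside the HFD arrays at 16.5 and 16.9 and away from the chow arrays at −43.3 and −40.4. Between the 2 mice of a group, log2 differences had an SD of 0.31 in the candesartan group, 0.27 in the HFD group and 0.44 in the chow group.

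Candesartan-treated HFD fat differed from chow fat in 740 genes (6.59% of those tested), 503 higher (4.48%) and 237 lower (2.11%). The test was limma's moderated test on 4 group means, and a gene was called where its p, adjusted by Benjamini and Hochberg's method across the 11232 genes, was under 0.05. The difference was 2-fold or more for 338 of the higher genes and 99 of the lower ones. Before adjustment 2391 genes had a p under 0.05, where chance gives 562, and the median difference over all genes was −0.02 on the log2 scale. The candesartan and chow arrays did not overlap for 53.7% of genes, where chance gives 33.3% with 2 arrays against 2. With 2 mice against 2, an exact permutation test cannot go below 0.333, so each call rests on limma's pooled spread. The share of higher genes among the calls, 68.0%, was 85.5% with each array centred on its median in place of the trimmed mean (489 higher and 83 lower). Leaving out an HFD or telmisartan array alters only the estimate of spread. Leaving out a chow or candesartan array also alters the differences and leaves 1 mouse in a group compared. The number of calls therefore need not point to particular mice, but it changed with the array left out, as the plot shows. It was 117 without candesartan array 2, 248 without candesartan array 1, 461 and 460 without chow array 1 or 2, and 394 and 392 without HFD array 1 or 2. Without telmisartan array 1 or 2 it was 1306 and 1315. All 740 genes kept their direction in each of these 8 fits. For the fits without an HFD or telmisartan array this was fixed in advance. For the others, the genes had been chosen by their differences on the same arrays, so a kept direction says little.

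**Figure D1:**
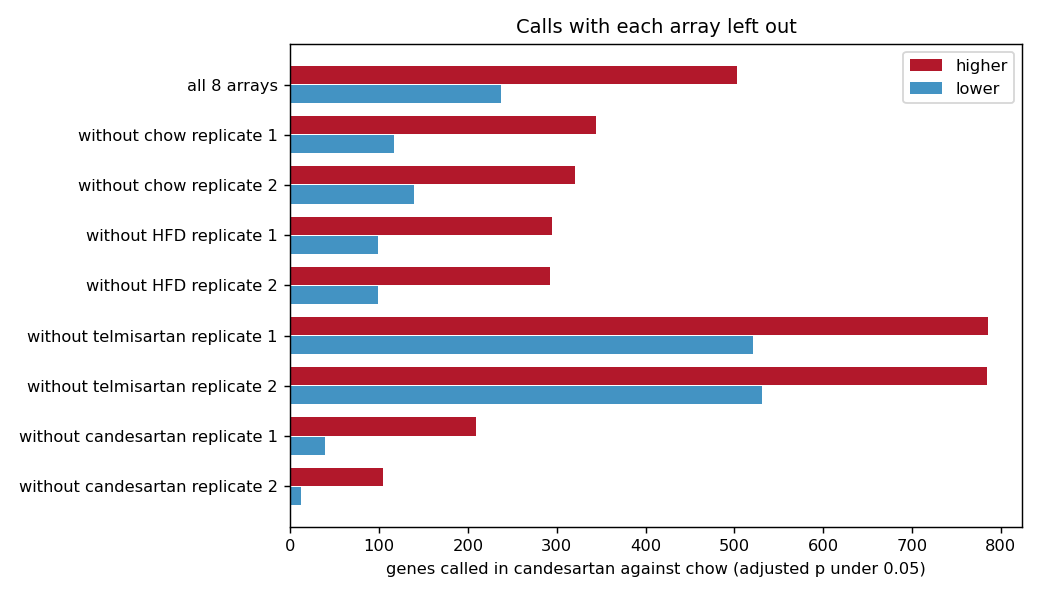
Genes called higher (red) and lower (blue) in candesartan-treated HFD fat against chow (horizontal axis, number of genes at a limma adjusted p under 0.05) with all 8 arrays and with each array left out in turn. With all arrays the bars reach 503 and 237, without candesartan array 2 they reach 105 and 12, and without telmisartan array 2 they reach 784 and 531.

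With all arrays in the fit, most genes called for the diet were also called under candesartan. HFD fat without a drug differed from chow in 909 genes (8.09%), 578 higher (5.15%) and 331 lower (2.95%), and 647 of these were also called with candesartan in the same direction. That is 71.2% of the HFD calls and 87.4% of the candesartan calls, and 0 genes were called in opposite directions. The overlap covered 467 of the 578 higher HFD calls (80.8%) and 180 of the 331 lower ones (54.4%). Both comparisons use the same 2 chow arrays, so a shift in those mice enters both counts. The remaining higher genes had a median difference of 1.30 on the log2 scale with candesartan and 1.33 with HFD alone, and the remaining lower genes −0.97 and −1.01. A further 93 genes (12.6% of the candesartan calls) were called with candesartan and not with HFD alone, and 262 (28.8% of the HFD calls) with HFD alone and not with candesartan. Leaving out 1 array moved the number that remained between 116 and 1169. The share of HFD calls that remained was 45.2% without candesartan array 1 (241 of 533) and 21.7% without candesartan array 2 (116 of 535), and 67.0% to 98.2% with any other array left out.

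The direct comparison of candesartan-treated with untreated HFD fat called 0 genes in limma. Its smallest adjusted p was 1.0, and before adjustment 140 genes had a p under 0.05, where chance gives 562. It also called 0 genes with each array left out and in every other setting that allowed it except 1, in which dim genes were tested as well. The spread was pooled over all groups, telmisartan included. Log2 differences between the 2 mice of a group had an SD of 0.48 with telmisartan and 0.44 in chow. In the 2 groups compared here it was 0.31 (candesartan) and 0.27 (HFD). A fit without the telmisartan arrays gave 250 genes with an unadjusted limma p under 0.05. The count of 140 below chance is therefore no measure of how alike the 2 groups are. In the main fit the median 95% interval of a gene reached 0.44 to each side on the log2 scale. For a typical gene, a difference of that size or less between drug and no drug could not be told from 0 even before adjustment. After adjustment over all genes a call needs a larger difference. The 0 calls therefore do not show that drug differences above that size are absent. No gene below is therefore shown to differ between candesartan-treated and untreated HFD fat after adjustment, and unadjusted p-values of that comparison are given as descriptions.

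The largest rises included genes of lipid-laden macrophages and of secreted or signalling proteins. The signal of Cck, the gut and brain peptide cholecystokinin, was 3.02 and 10.2 in chow, 598 and 332 in HFD and 462 and 597 in candesartan-treated mice. Both chow mice were far below all HFD-fed mice, with 1 chow array under the floor of 6.68 set on low signals. Its rise of 5.99 (95% interval 5.13 to 6.86, adjusted p = 0.000289) on the log2 scale therefore depends in part on that floor. Atp6v0d2, a proton pump subunit of macrophages and osteoclasts, measured 40.2 and 76.7 in chow, 2327 and 2501 in HFD and 1994 and 2606 in candesartan-treated mice, and Mmp12, the macrophage elastase, 65.2 and 107 in chow, 2805 and 4188 in HFD and 2257 and 4038 in candesartan-treated mice. Chow did not overlap with the other groups for either gene, and they rose by 5.36 and 5.18 (adjusted p = 0.000577 and 0.000577). Ubd, a ubiquitin-like modifier induced by cytokines, went from 126 and 149.5 in chow to 4723 and 5038 with candesartan, with the HFD mice at 4938 and 4615. Its mice of each group were close together, and its adjusted p of 5.37e-07 was the smallest of the comparison. Gpnmb, a glycoprotein of lysosome-rich macrophages, measured 139.6 and 298 in chow, 6483 and 7776 in HFD and 6235 and 8383 in candesartan-treated mice, a rise of 5.15 (adjusted p = 0.000289). Trem2, a lipid-sensing receptor of macrophages, measured 100.03 and 84.3 in chow, 2033 and 1972 in HFD and 1771 and 2669 in candesartan-treated mice, a rise of 4.57 (3.80 to 5.33). For Trem2 the candesartan mice lay on both sides of the HFD mice, and the interval of candesartan minus HFD was −0.64 to 0.88.

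The other genes among the 10 largest rises were Rgs1, a brake on G protein signalling in leukocytes (4.43), Zranb3, a DNA translocase of stalled replication forks (4.43), Il13ra2, a decoy receptor for interleukin 13 (4.36), and Gpr50, a melatonin-receptor relative (4.24). Il13ra2 had 1 chow array under the floor, and the chow signals of Gpr50 were 0.305 and 8.06, so their folds are open to the floor as well. The HFD differences of these genes were 4.45, 4.58, 4.47 and 4.31 in the same order. All 10 of these calls held whichever array was left out.

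The 10 largest falls ran from Ptgds to Mgl2. Ptgds, the lipocalin-type prostaglandin D synthase, measured 224 and 119.7 in chow, 42.1 and 55.4 in HFD and 20.4 and 32.3 in candesartan-treated mice. Candesartan-treated mice were the lowest and chow mice the highest with no overlap between any of these groups. The gene fell by 2.67 on the log2 scale (adjusted p = 0.00867), and by 1.76 with HFD alone; candesartan minus HFD was −0.91 (−1.87 to 0.05, unadjusted p = 0.0595). Ptges, the inducible prostaglandin E synthase, measured 700.3 and 848 in chow, 143 and 251 in HFD and 182 and 161 in candesartan-treated mice and fell by 2.17 (adjusted p = 0.00270). Agt, the angiotensinogen gene, measured 1093 and 2482 in chow, 391 and 366 in HFD and 412 and 421 in candesartan-treated mice. The chow mice differed from each other by more than the HFD and candesartan mice did, and all 4 HFD-fed mice were lower than both. Its fall was 1.98 (adjusted p = 0.0296), beside 2.12 in HFD. Mgl2, a galactose-binding lectin of alternatively activated macrophages, fell by 1.97, and the lectins Cd209g and Cd209d by 2.32 and 2.19. The Cd209 genes are close paralogs whose probes may share transcripts. Reep6, a protein of the endoplasmic reticulum, fell by 2.36, Cyp2f2, a cytochrome P450, by 2.35, and Syt12, a synaptotagmin, by 2.15. Prom1, the membrane glycoprotein CD133, fell by 2.47 and was not called with HFD alone (−2.13, adjusted p = 0.0525). Prom1 and Syt12 lost the call whichever chow, HFD or candesartan array was left out, Cyp2f2 and Agt without chow array 2, HFD array 1 or 2 or candesartan array 1 or 2, and Cd209d and Mgl2 without chow array 1 or 2 or candesartan array 1 or 2. Reep6 lost the call without chow array 1 or candesartan array 2, Ptgds without candesartan array 1, and Cd209g without candesartan array 2 (limma adjusted p then 0.0513 to 0.263). Ptges was called whichever array was left out.

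**Figure D2:**
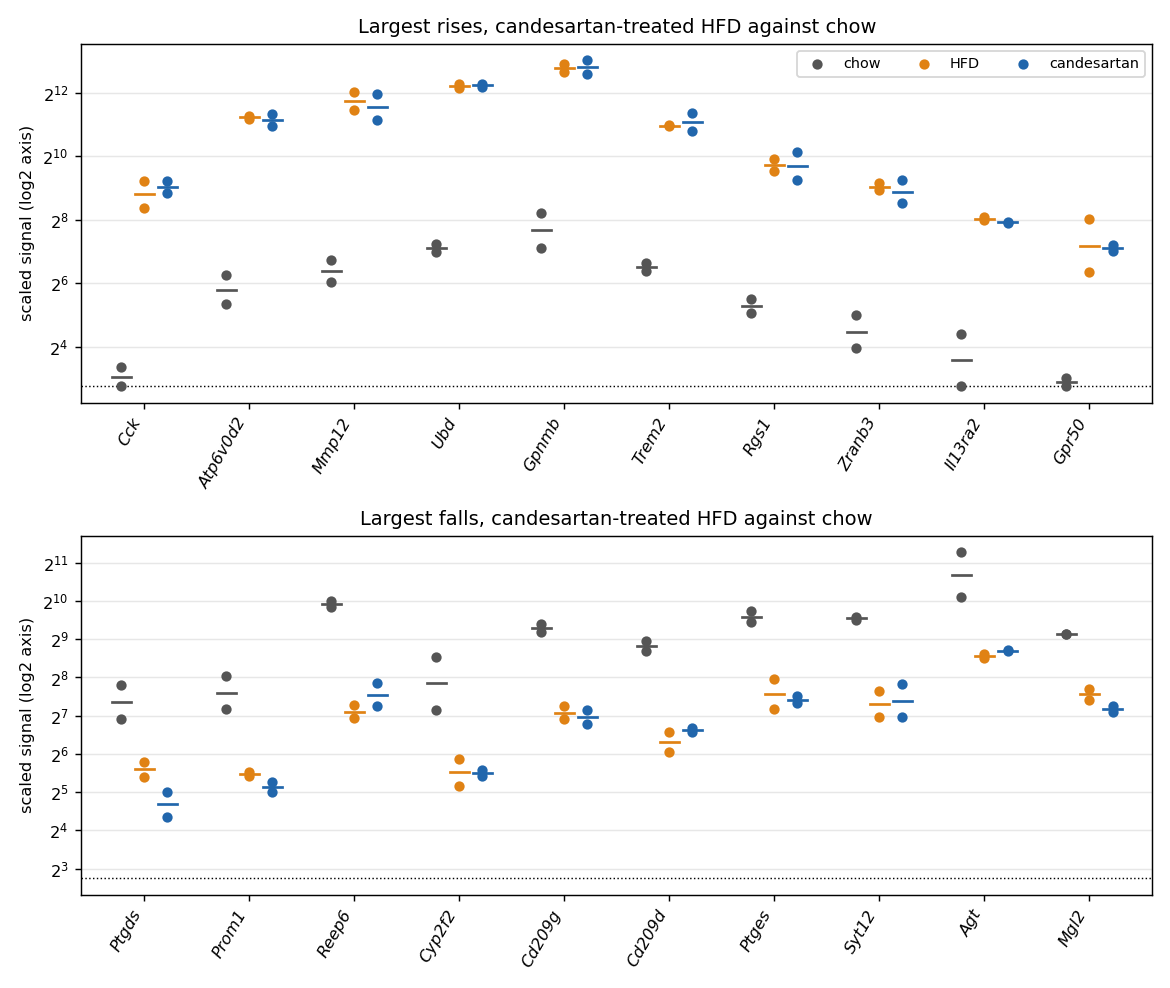
Scaled signal of the 10 genes with the largest rises (top) and the largest falls (bottom), on a log2 axis, with 1 point per mouse, a bar at the mean of each group on that axis and a dotted line at the floor of 6.68. The HFD and candesartan points lie together for Ubd (4938 and 4615, then 4723 and 5038), far above the chow points at 126 and 149.5.

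Gene lists of cell types and pathways were set beside these calls, and 39 of the 40 had a tested member. Over all lists, 144 distinct genes were called with candesartan (101 higher, 43 lower), and 132 of them were also called with HFD alone. The list medians of candesartan minus HFD ran from −0.30 (B cell genes) to 0.22 (brown and beige adipocyte genes). For comparison, 4.48% of all genes tested were called higher, 2.11% lower, and their median was −0.02. Genes of macrophages are spread over several of the pathway lists, and the part of the macrophage list in the values of the others was not tested. In this bulk tissue, fewer cells of a type and less RNA per cell cannot be told apart.

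**Figure D3:**
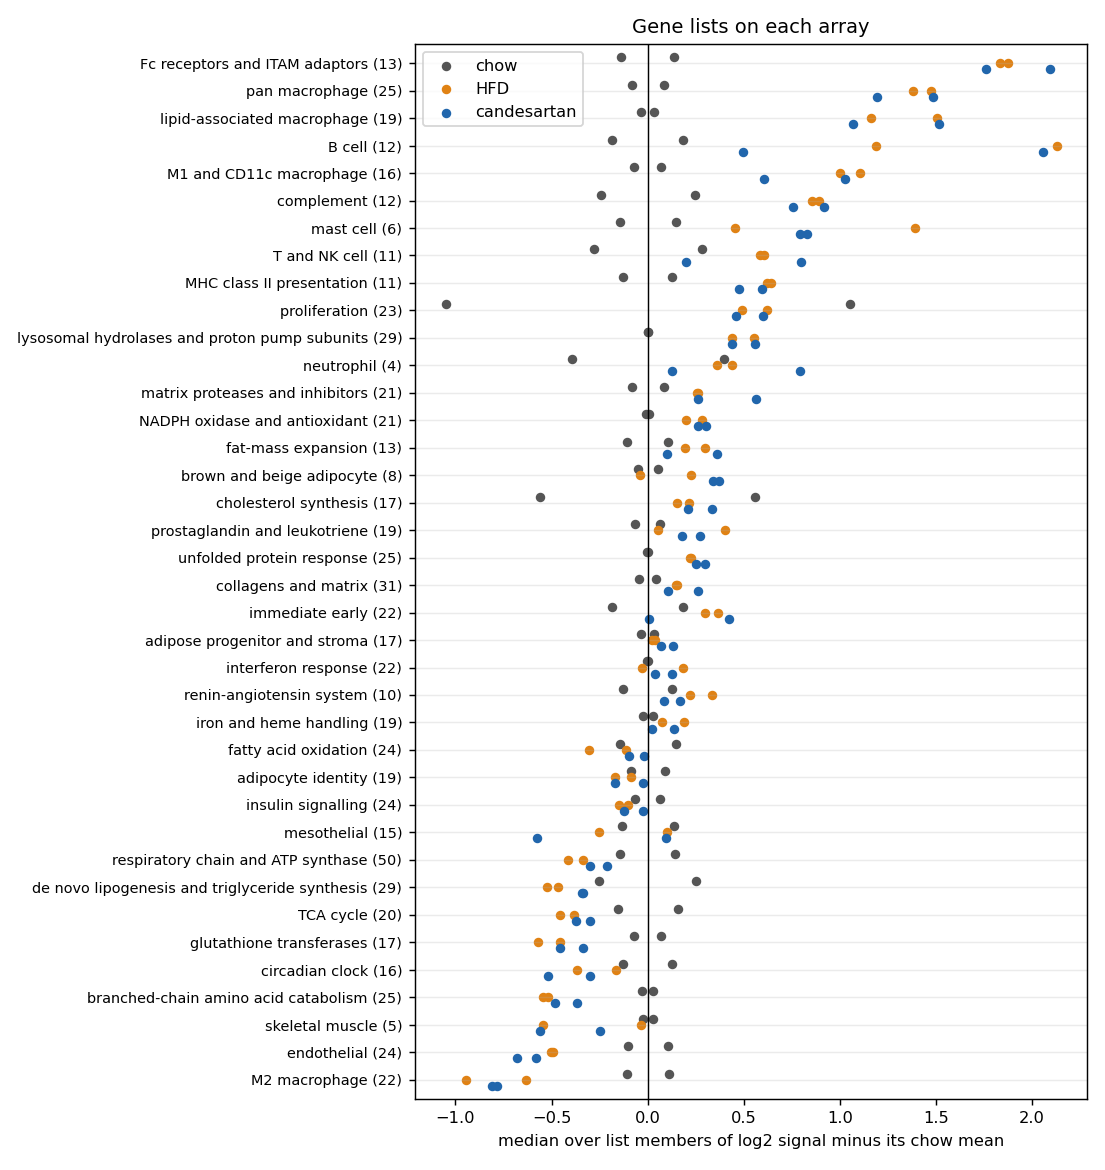
Median over the tested genes of each list (number in brackets) of log2 signal minus the chow mean, 1 point per mouse, for chow, HFD and candesartan-treated HFD fat. The pan macrophage list stands at 1.38 and 1.48 in the HFD mice and 1.19 and 1.48 in the treated mice, and the endothelial list at −0.50 and −0.49, then −0.68 and −0.58.

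Macrophage genes were higher than in chow under candesartan, as in HFD. Of 25 tested genes shared by most macrophages, 18 rose and 0 fell, with a list median of 1.41, against 21 and 1.40 in HFD. The summed signal of the list was 33996 and 36846 in chow, 79671 and 83125 in HFD, and 75802 and 85775 with candesartan. Adgre1, which encodes the macrophage marker F4/80, measured 620.3 and 660.0 in chow, 2629 and 2632 in HFD and 2172 and 2935 in candesartan-treated mice and rose by 1.98 (SE 0.29, adjusted p = 0.00597). Cd68, a late endosomal glycoprotein, measured 1106 and 1089 in chow, 5401 and 5840.5 in HFD and 4675 and 6039 in candesartan-treated mice and rose by 2.28 (adjusted p = 0.000839). In both genes the chow mice were below these 4 HFD-fed mice, and the 2 treated mice lay on both sides of the untreated HFD mice. Spi1, the transcription factor PU.1 of the myeloid lineage, rose by 1.65, Fcgr1, the high-affinity IgG receptor, by 1.98, and Cd84, an adhesion receptor of leukocytes, by 2.87. Lyz2 and Lyz1, neighbouring lysozyme genes with near-identical transcripts, rose by 0.72 and 0.73, and their probes may not separate them. Fcgr1 lost the call without chow array 1 or candesartan array 1 or 2, Lyz2 without candesartan array 1 or 2, and Adgre1 and Lyz1 without candesartan array 2 (limma adjusted p then 0.0514 to 0.158). Cd68, Spi1 and Cd84 were called whichever array was left out.

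The lipid-associated macrophage list had 13 of 19 tested genes higher, 0 lower, and a median of 1.29, beside 13 higher and 1.33 in HFD. Besides Trem2, Gpnmb, Mmp12 and Atp6v0d2 it held Itgax, which encodes the integrin CD11c. Itgax measured 195 and 217 in chow, 1559.9 and 1987 in HFD and 1503 and 2106 in candesartan-treated mice and rose by 3.11 (adjusted p = 0.000806). Lipa, the lysosomal acid lipase, rose by 2.02, Ctsk, a cysteine protease, by 2.61, and Plin2, a lipid droplet coat protein, by 0.98. The median was 1.07 without candesartan array 2 and 1.51 without candesartan array 1. The calls of Itgax, Lipa, Ctsk and Plin2 held whichever array was left out.

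**Figure D4:**
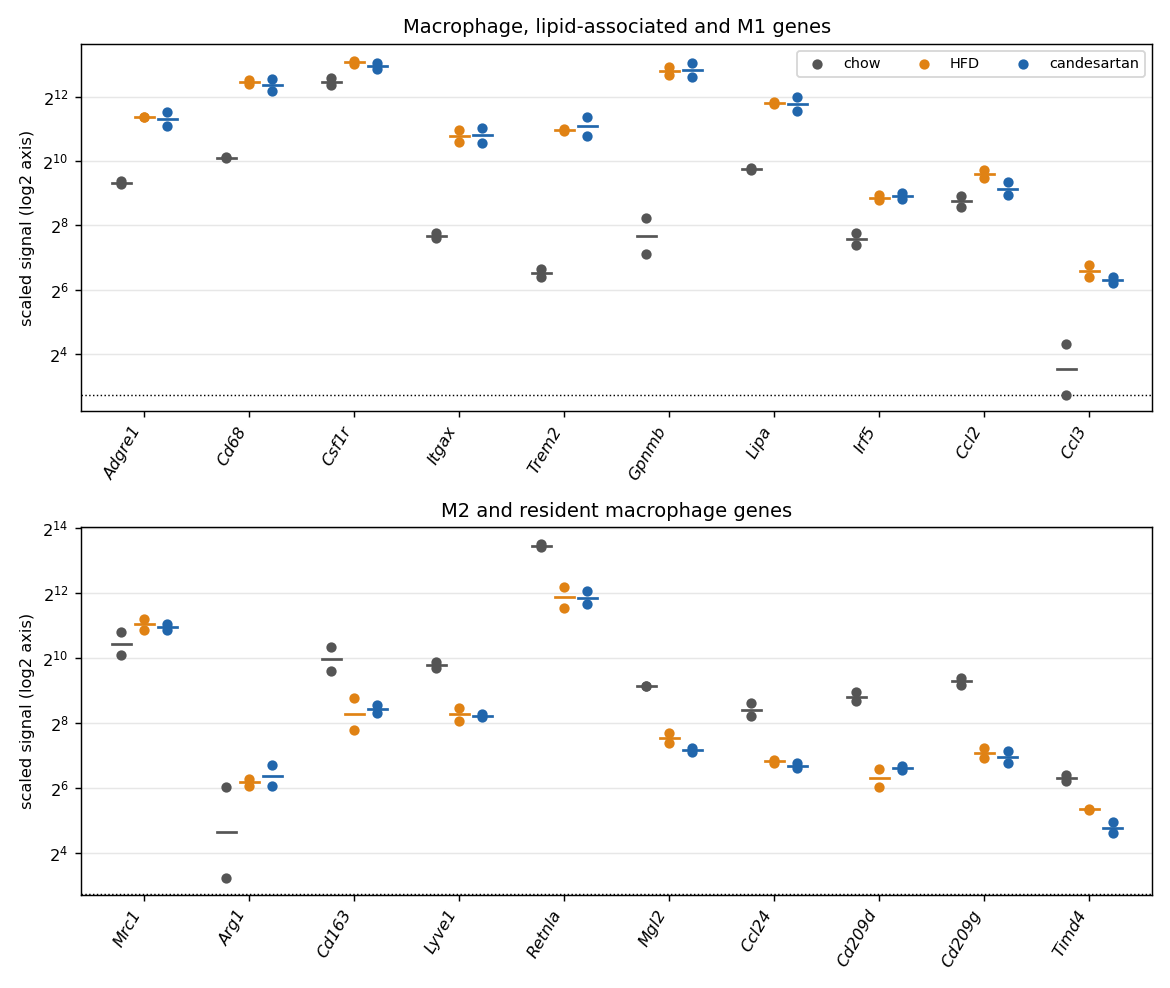
Scaled signal of genes of macrophages, lipid-associated and M1 cells (top) and of M2 and resident macrophages (bottom) in chow, HFD and candesartan-treated HFD fat, on a log2 axis, with 1 point per mouse, a bar at each group's mean on that axis and a dotted line at the floor. The HFD and candesartan points lie above both chow points for Adgre1, Cd68 and Itgax, and below both for Cd163 and Retnla.

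Lysosomal genes were called in number, with smaller rises. Of 29 hydrolases and proton pump subunits tested, 16 were higher with candesartan and 0 lower, with a median of 0.50, the same as in HFD (15 higher). Gusb, the beta-glucuronidase, rose by 1.39 (adjusted p = 0.00202), Gla, the alpha-galactosidase, by 1.36, Npc1, a cholesterol exporter of the lysosome, by 0.91, and Atp6v1a, the catalytic pump subunit, by 1.05. Ctsd and Glb1, a protease and the beta-galactosidase, rose by 0.50 and 0.58 and were not called with HFD alone (0.45 and 0.38). Candesartan minus HFD was 0.04 and 0.19 for them (unadjusted p = 0.721 and 0.210). Npc1 and Glb1 lost the call whichever chow, HFD or candesartan array was left out, Ctsd without chow array 2, HFD array 1 or 2 or candesartan array 1 or 2, and Gla without candesartan array 2 (limma adjusted p then 0.0636 to 0.314). Gusb and Atp6v1a were called whichever array was left out.

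Since lysosomal genes are known targets of factors of the TFEB family, which bind CACGTG, the promoters of the list were searched for that word, which reads the same on both strands. The window ran from 250 bases before to 50 bases after the start of each gene (RefSeq, GRCm38.p6). It was found in 10 of the 22 list genes with a promoter entry (45.5%), and in 5 of the 11 called ones. It was found in 11.9% of 9091 tested genes with an entry and in 7.15% of all 32851 promoters. PU.1 binds a purine-rich core, and GAGGAA, on either strand, was found in 13 of 18 pan macrophage genes (72.2%) and 10 of the 14 called ones, beside 30.7% of tested genes and 28.3% of all promoters. The stretches upstream of the starts of Gla (chrX:134601006-134601255, minus strand), Atp6v1a (chr16:44139260-44139509, minus strand), Ctsa (chr2:164833523-164833772, plus strand), Cd68 (chr11:69666171-69666420, minus strand) and Fcgr1 (chr3:96293970-96294219, minus strand) are shown because they belong to called genes that hold a match before the start, with the largest rises among such genes of their lists. Each is 250 bases of the gene's own strand, 5′ to 3′, and ends at the base before the start. Capitals mark CACGTG in the 3 lysosomal genes and GAGGAA or its reverse complement TTCCTC in Cd68 and Fcgr1.
Gla: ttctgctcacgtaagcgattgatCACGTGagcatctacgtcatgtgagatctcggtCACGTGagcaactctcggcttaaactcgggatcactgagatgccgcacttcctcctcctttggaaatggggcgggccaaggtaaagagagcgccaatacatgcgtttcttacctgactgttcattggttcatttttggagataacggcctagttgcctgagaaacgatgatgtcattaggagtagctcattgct
Atp6v1a: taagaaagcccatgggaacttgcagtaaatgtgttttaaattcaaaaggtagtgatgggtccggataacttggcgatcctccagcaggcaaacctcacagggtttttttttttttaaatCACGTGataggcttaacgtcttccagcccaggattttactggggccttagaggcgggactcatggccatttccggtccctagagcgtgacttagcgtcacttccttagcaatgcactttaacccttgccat
Ctsa: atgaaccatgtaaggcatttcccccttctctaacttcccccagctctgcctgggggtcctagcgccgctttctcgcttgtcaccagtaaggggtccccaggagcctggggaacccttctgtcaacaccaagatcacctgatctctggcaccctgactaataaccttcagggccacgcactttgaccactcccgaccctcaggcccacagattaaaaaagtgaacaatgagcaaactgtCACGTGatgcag
Cd68: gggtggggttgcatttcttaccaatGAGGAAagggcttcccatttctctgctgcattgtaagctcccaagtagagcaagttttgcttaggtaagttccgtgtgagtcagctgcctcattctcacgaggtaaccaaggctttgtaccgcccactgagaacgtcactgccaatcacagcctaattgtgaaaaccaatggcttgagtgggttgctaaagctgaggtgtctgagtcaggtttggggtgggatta
Fcgr1: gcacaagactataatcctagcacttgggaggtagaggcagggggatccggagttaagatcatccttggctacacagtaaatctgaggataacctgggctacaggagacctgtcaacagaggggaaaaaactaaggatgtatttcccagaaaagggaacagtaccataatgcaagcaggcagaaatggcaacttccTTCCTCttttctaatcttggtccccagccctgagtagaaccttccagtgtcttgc
In these stretches Gla held 2 matches, 227 and 194 bases before the start, Atp6v1a 1 at 131, Ctsa 1 at 12, Cd68 1 at 225 and Fcgr1 1 at 55. In the full window searched, Ctsa and Cd68 each held 2. Another promoter entry of Ctsa held no match. Ctsa, the protective protein cathepsin A, rose by 0.86. A match to these letters is a description and no binding was measured.

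The list of Fc receptors, ITAM adaptors and related signalling genes was among the densest in calls. Of its 13 tested genes 12 rose with candesartan (11 in HFD), with a median of 1.94. It mixes receptors, lectins, adaptors and the kinase Syk, and not every receptor in it signals through an ITAM adaptor. Fcgr4, an activating IgG receptor, measured 38.6 and 44.7 in chow, 288 and 241 in HFD and 338 and 283 in candesartan-treated mice and rose by 2.89 (adjusted p = 0.0365). Tyrobp, the adaptor DAP12 through which Trem2 signals, rose by 1.94, Syk, the kinase that ITAM adaptors recruit, by 1.81, and Clec7a, the beta-glucan receptor dectin-1, by 2.66. Hcst, the adaptor DAP10, which carries no ITAM itself, rose by 1.22 with candesartan and was not called in HFD alone (0.98, adjusted p = 0.0843). The complement list had 5 of 12 genes higher and a median of 0.84 (6 higher in HFD), among them the receptors C3ar1 (2.73) and C5ar1 (1.92). Fcgr4 and Hcst lost the call whichever chow, HFD or candesartan array was left out, C5ar1 without chow array 1 or candesartan array 2, and Syk, Clec7a and C3ar1 without candesartan array 2 (limma adjusted p then 0.0552 to 0.230). Tyrobp was called whichever array was left out.

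Some genes linked to classical activation rose. Of 16 tested genes of the M1 and CD11c list 3 rose (Itgax, Irf5 and Saa3), with 6 in HFD, where 4.48% of all genes were called higher with candesartan, and the median was 0.90 beside 1.05. Irf5, a transcription factor of inflammatory macrophages, rose by 1.34, although its other, dimmer probe set stood at 0.02 and the median over both was 0.68 without a call (adjusted p = 0.0876). Saa3, an acute-phase protein of fat and macrophages, rose by 2.47. Tnf was too dim to be tested. Ccl2, the monocyte chemokine MCP-1, measured 485 and 381 in chow, 706 and 847 in HFD and 651 and 488 in candesartan-treated mice. It was called with HFD alone (0.85, adjusted p = 0.0355) and not with candesartan (0.39, adjusted p = 0.296); candesartan minus HFD was −0.46 (−0.90 to −0.01, unadjusted p = 0.0458). The 2 treated mice lay below both untreated HFD mice and above both chow mice. Ccl3, another monocyte chemokine, was at 2.77 with candesartan (adjusted p = 0.0528) and 3.05 with HFD (0.0344). The list median was 0.61 without candesartan array 1. Irf5 lost the call without chow array 1 or candesartan array 1 or 2, and Saa3 without candesartan array 2 (limma adjusted p then 0.0718 to 0.155).

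The list of alternatively activated and resident macrophages went the other way in part. Of 22 tested genes 9 fell and 2 rose, with a median of −0.80, beside 8, 2 and −0.79 in HFD. Its summed signal was 30245 and 32777 in chow, 21815 and 17808 in HFD, and 18691 and 19426 with candesartan. Cd163, the scavenger receptor for haemoglobin, measured 777 and 1291 in chow, 437 and 222 in HFD and 317 and 379 in candesartan-treated mice and fell by 1.53 (adjusted p = 0.0320). Retnla, a secreted protein of alternative activation, measured 10882 and 11626 in chow, 4699.7 and 3004 in HFD and 4280.1 and 3217 in candesartan-treated mice and fell by 1.60. In both genes all of these HFD-fed mice lay below the chow mice. Lyve1, a hyaluronan receptor of perivascular macrophages and lymphatics, fell by 1.56, and F13a1, the coagulation factor XIII subunit, by 0.76 without a call in HFD alone (−0.65). The 2 that rose were Egr2, an early-response transcription factor (2.55), and Il1rn, the interleukin 1 receptor antagonist (2.60). Mrc1, the mannose receptor, was at 0.51 (adjusted p = 0.413) and Arg1, arginase 1, at 1.75 (adjusted p = 0.229). Without a call, Stab1, Folr2, Tgfb1, Clec10a and Il4ra were at 0.60, 0.37, 0.76, 0.04 and 0.11. Cd209a, Cd209b, Cbr2 and Klf4 were at −1.45, −1.94, −0.83 and −0.25, also without one. The falls included the close paralogs Cd209d, Cd209f and Cd209g, whose probes may share transcripts. F13a1 lost the call without chow array 1 or 2 or candesartan array 1 or 2, Cd163 and Lyve1 without chow array 2 or candesartan array 1 or 2, and Retnla without candesartan array 2 (limma adjusted p then 0.0535 to 0.258). Egr2 and Il1rn were called whichever array was left out.

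Lymphocyte genes differed between the 2 candesartan mice. Of 12 tested B cell genes 3 rose (4 in HFD), and the list median above the chow mean was 2.06 in candesartan array 1 and 0.50 in array 2, against 2.13 and 1.19 in the HFD mice. The 3 were Cd72 (3.55), Blnk (2.70) and Cd22 (2.41), of which the receptor Cd72 and the adaptor Blnk are also made by macrophages. Of 11 T and NK cell genes 1 rose, Il7r, the interleukin 7 receptor (4.11), with array medians of 0.80 and 0.20. None of 6 mast cell genes was called (median 0.81), and none of 4 neutrophil genes, whose median was 0.93 without chow array 1 and −0.17 without chow array 2. Of 11 genes of MHC class II presentation 1 rose, the lysosomal thiol reductase Ifi30 (1.54), with a median of 0.54. Of 22 interferon response genes 1 rose, the myeloid transcription factor Irf8 (1.21), with a median of 0.14, which was 0.04 without candesartan array 1 and 0.09 without chow array 1. How far these cell types carry other calls was not tested. Cd22 lost the call without chow array 1 or candesartan array 1 or 2, Irf8 without chow array 2 or candesartan array 1 or 2, and Cd72 and Ifi30 without candesartan array 2 (limma adjusted p then 0.0509 to 0.149). Blnk and Il7r were called whichever array was left out.

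Of 19 tested genes of adipocyte identity 1 fell and 0 rose, and the median was −0.07 (2 lower in HFD). That median was −0.21 without chow array 1 and 0.08 without chow array 2, and −0.17 and −0.03 without candesartan array 1 or 2. Adipoq, which encodes adiponectin, measured 15423 and 17415 in chow, 15646 and 16814 in HFD and 16926 and 16606 in candesartan-treated mice, a difference of 0.03 (−0.21 to 0.28). Lep, the leptin gene, was at 0.29 (−0.12 to 0.70). The gene that fell was Slc2a4, the insulin-responsive glucose transporter GLUT4, at 1615 and 1673 in chow, 467 and 546 in HFD and 709.8 and 538 in candesartan-treated mice. These 4 HFD-fed mice were below both chow mice, and the fall was 1.41 (adjusted p = 0.0134). Pparg, the master regulator of adipocytes, was called in HFD (−0.81, adjusted p = 0.0333) and not with candesartan (−0.56, adjusted p = 0.116); candesartan minus HFD was 0.25 (−0.17 to 0.67). In the insulin signalling list 2 of 24 fell, Slc2a4 and the insulin receptor substrate Irs1 (−0.65). Of 13 genes that follow fat-mass expansion 1 rose, Tph2, a tryptophan hydroxylase (4.0), and the list median of 0.29 was −0.07 and 0.46 without chow array 1 or 2, and 0.10 without candesartan array 1. Irs1 lost the call whichever chow, HFD or candesartan array was left out, Slc2a4 without chow array 1 or 2 or candesartan array 2, and Tph2 without candesartan array 2 (limma adjusted p then 0.0521 to 0.260).

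Genes of lipid synthesis fell in part. Of 29 tested genes of lipogenesis and triglyceride synthesis 5 fell (6 in HFD) with a median of −0.31 (−0.48 in HFD). Acaca, acetyl-CoA carboxylase 1, measured 4144 and 2469 in chow, 1002 and 1001 in HFD and 1125 and 1232 in candesartan-treated mice and fell by 1.44 (adjusted p = 0.00647). Mogat1, a monoacylglycerol acyltransferase, fell by 1.37, Thrsp, the lipogenic protein Spot 14, by 1.05, Mlxipl, the glucose-sensing factor ChREBP, by 0.89, and Gpam, a mitochondrial acyltransferase, by 0.74. The list median rested on which chow mouse it was set against: −0.11 without chow array 1 and −0.70 without chow array 2. The cholesterol synthesis list (17 tested, 0 called, median 0.27) behaved in the same way, at 0.83 and −0.39. Mlxipl and Gpam lost the call whichever chow, HFD or candesartan array was left out, Mogat1 without chow array 2 or candesartan array 1 or 2, and Acaca without candesartan array 1 or 2. Thrsp lost the call without candesartan array 2 (limma adjusted p then 0.0503 to 0.270).

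None of 50 respiratory chain and ATP synthase genes was called with candesartan and 4 fell in HFD, with medians of −0.26 and −0.35. The candesartan median was −0.12 without chow array 1 and −0.42 without chow array 2. AAGGTCA, the word bound by oestrogen-related receptors, which drive such genes, was found on either strand in 3 of the 40 with a promoter entry (7.5%), beside 3.82% of tested genes and 4.72% of all promoters. Of 20 TCA cycle genes 1 fell, Pdha1, the pyruvate dehydrogenase subunit (−0.48), with 3 in HFD, and the list median of −0.34 was −0.14 without chow array 1. Of 25 genes of branched-chain amino acid catabolism 3 fell with candesartan and 6 in HFD, with medians of −0.44 and −0.55. They were Klf15, a transcription factor of amino acid use (−1.55), Hibch, a hydrolase of valine breakdown (−0.60), and Bcat2, the mitochondrial transaminase (−0.75), which was not called in HFD alone (−0.66). Of 24 genes of fatty acid oxidation 1 rose, Pdk4, the pyruvate dehydrogenase kinase (1.58). Pdha1, Hibch and Bcat2 lost the call whichever chow, HFD or candesartan array was left out, Klf15 without chow array 1 or 2, HFD array 1 or 2 or candesartan array 2, and Pdk4 without chow array 1 or 2 or candesartan array 2 (limma adjusted p then 0.0578 to 0.314).

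Endothelial genes fell in part. Of 24 tested genes 12 fell with candesartan (7 in HFD) and 0 rose, 0 of the 24 were called between candesartan-treated and untreated HFD fat, and the median was −0.63 (−0.49 in HFD). The summed signal was 32758 and 28013 in chow, 22109 and 20939 in HFD, and 19282 and 20392 with candesartan. Kdr, the VEGF receptor 2, measured 428 and 508 in chow, 264 and 306 in HFD and 219 and 217 in candesartan-treated mice and fell by 1.10 (adjusted p = 0.00597). Tie1, an angiopoietin receptor relative, fell by 1.16, Sox18, an endothelial transcription factor, by 1.06, and Gpihbp1, which carries lipoprotein lipase to capillaries, by 0.58. The calls made with candesartan and not in HFD were Aplnr, the apelin receptor (−1.11 beside −0.90), Egfl7 (−0.76 beside −0.48), Erg (−0.63 beside −0.46), Ptprb (−0.54 beside −0.51) and the pericyte gene Rgs5 (−0.63 beside −0.44). For these 5 genes the unadjusted p of candesartan minus HFD was 0.394, 0.135, 0.274, 0.831 and 0.124 in that order. Egfl7 and Erg lost the call whichever chow, HFD or candesartan array was left out, Gpihbp1 and Aplnr without chow array 1, HFD array 1 or 2 or candesartan array 1 or 2, and Ptprb without chow array 2, HFD array 1 or 2 or candesartan array 1 or 2. Rgs5 lost the call without chow array 2 or candesartan array 1 or 2, Kdr and Sox18 without candesartan array 1 or 2, and Tie1 without candesartan array 2 (limma adjusted p then 0.0517 to 0.265).

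Some matrix proteases rose. Of 21 proteases and inhibitors 7 rose (8 in HFD), with a median of 0.30, which was 0.56 without candesartan array 1. Mmp3, stromelysin 1, measured 30.2 and 46.8 in chow, 299 and 263 in HFD and 214 and 249.7 in candesartan-treated mice and rose by 2.62 (adjusted p = 0.00163). Timp1, an inhibitor of metalloproteinases, rose by 2.14, Adam8, a leukocyte metalloproteinase, by 3.58, and Mmp14, a membrane-bound one, by 0.96. Of 31 collagen and matrix genes 1 rose, the proteoglycan Lum (1.26), with a median of 0.21, which was 0.02 without chow array 2 and 0.11 without candesartan array 2. Of 17 stromal genes 1 rose, Fap, a protease of activated fibroblasts (0.68). Of 15 mesothelial genes 0 were called, and the 2 treated mice stood at list medians of −0.57 and 0.10. Mmp14 lost the call whichever chow, HFD or candesartan array was left out, Fap without chow array 2, HFD array 1 or 2 or candesartan array 1 or 2, and Lum without candesartan array 2 (limma adjusted p then 0.0577 to 0.223). Mmp3, Timp1 and Adam8 were called whichever array was left out.

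Within the renin-angiotensin system, which holds the drug's target, 5 of 10 tested genes were called, the same 5 as in HFD. Agt fell, as given above with its values, and so did Enpep, the aminopeptidase that trims angiotensin II, by 0.73 (4205 and 3628 in chow, 2352 and 2100.2 in HFD and 2269.9 and 2448 in candesartan-treated mice). Anpep, the aminopeptidase N, measured 97.9 and 151 in chow, 656 and 807 in HFD and 598 and 715 in candesartan-treated mice and rose by 2.43. Mme, neprilysin, rose by 0.82, and Atp6ap2, the prorenin receptor and proton pump partner, by 0.51. Agtr1a, the receptor that candesartan blocks, measured 422 and 411 in chow, 476 and 396 in HFD and 339 and 397 in candesartan-treated mice, a difference of −0.18 (−0.57 to 0.20, adjusted p = 0.583). Candesartan minus HFD was 0.14 for Agt (−0.82 to 1.10) and −0.25 for Agtr1a (−0.63 to 0.14). Enpep and Atp6ap2 lost the call without chow array 1, HFD array 1 or 2 or candesartan array 1 or 2, Mme without chow array 1 or 2, HFD array 1 or 2 or candesartan array 2, and Anpep without candesartan array 2 (limma adjusted p then 0.0503 to 0.287).

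Genes of oxidant production and defence rose in their phagocyte members. Of 21 tested 7 rose and 0 fell with a median of 0.29. Cybb and Cyba, the membrane subunits of the phagocyte NADPH oxidase, rose by 1.46 and 1.45, and its cytosolic partners Ncf1, Ncf4 and Rac2 by 1.08, 1.19 and 1.0. Hmox1, the haem oxygenase, rose by 1.42. Among 17 glutathione transferases 2 fell, Gsta4 (−1.83) and Gsta3 (−1.67), which detoxify lipid aldehydes. In the iron and haem list 4 of 19 rose and 2 fell, including Hpx, the haem carrier hemopexin (3.28), and Slc11a1, a phagosomal metal transporter (1.73). Alas2, the erythroid haem synthase, fell by 1.77, and 1 of the 2 tested red cell genes was therefore lower. Cybb and Rac2 lost the call whichever chow, HFD or candesartan array was left out, Ncf4 without chow array 1 or candesartan array 1 or 2, and Hmox1 and Alas2 without candesartan array 1 or 2. Hpx lost the call without chow array 1 or candesartan array 2, and Ncf1 and Gsta3 without candesartan array 2 (limma adjusted p then 0.0509 to 0.279). Cyba, Gsta4 and Slc11a1 were called whichever array was left out.

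In the prostaglandin and leukotriene list 3 of 19 genes fell and 2 rose. Beside Ptgds and Ptges, Alox5, the 5-lipoxygenase, fell by 1.04 and was not called in HFD (−0.68, adjusted p = 0.117). Hpgds, the haematopoietic prostaglandin D synthase, measured 19.7 and 39.6 in chow, 267 and 271 in HFD and 184 and 297 in candesartan-treated mice and rose by 3.06 (adjusted p = 0.00984), opposite to Ptgds, which makes the same product. Tbxas1, the thromboxane synthase, rose by 1.74. Alox5 and Tbxas1 lost the call whichever chow, HFD or candesartan array was left out, and Hpgds without chow array 1 or candesartan array 2 (limma adjusted p then 0.0501 to 0.270).

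Each stress and timing list held calls, which are read against the 4.48% of all genes called higher and 2.11% lower. Of 25 unfolded protein response genes 3 rose and 1 fell, including Atf3, a stress-induced transcription factor (2.75), and Asns, asparagine synthetase (−0.84). Of 22 immediate early genes 4 rose, Egr2, Atf3, Gadd45b (1.06) and Gadd45g (0.80). Of 16 clock genes 2 fell, the output factors Dbp (−0.79) and Tef (−0.63). Of 8 brown and beige adipocyte genes 1 rose, the proton channel Otop1 (2.49). Of 23 proliferation genes 1 rose, the replication clamp Pcna (0.78). The 2 chow mice stood 1.05 above and below their mean on that list, and its median was 1.38 without chow array 1 and −0.45 without chow array 2. Of 5 skeletal muscle genes 1 rose, the calcium buffer Pvalb (2.96), with a list median of −0.54, which was −0.25 without candesartan array 2. Tef lost the call whichever chow, HFD or candesartan array was left out, Asns without chow array 1, HFD array 1 or 2 or candesartan array 1 or 2, and Gadd45b without chow array 1 or 2, HFD array 1 or 2 or candesartan array 1. Pcna lost the call without chow array 2, HFD array 1 or 2 or candesartan array 1 or 2, and Gadd45g and Dbp without chow array 2 or candesartan array 1 or 2 (limma adjusted p then 0.0513 to 0.258). Atf3, Otop1 and Pvalb were called whichever array was left out.

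The 93 genes called with candesartan and not with HFD alone had the same direction at a smaller size in the HFD medians. Their choice by candesartan values also produces such a gap. The 36 higher ones had a median of 0.72 with candesartan and 0.57 with HFD, and the 57 lower ones −0.79 and −0.57. In HFD alone, 34 of the 36 and 52 of the 57 had an unadjusted p under 0.05. Of the 93, 50 were also called in telmisartan-treated fat against the same chow mice with the same sign, and 43 were not (17 higher, 26 lower). That comparison called 8.44% of all genes (4.96% higher, 3.48% lower). In the direct comparison 11 of the 93 had an unadjusted p under 0.05 against untreated HFD, and candesartan and HFD arrays did not overlap for 63.4% of them, beside 33.4% of all genes. Both figures follow in part from the choice of these genes by their candesartan values. The number was 7 without candesartan array 1, 1 without candesartan array 2, and 217 and 230 without HFD array 1 or 2.

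The largest rise of this class was Igkv6-20, a variable segment of the immunoglobulin kappa chain. It measured 40.8 and 14.4 in chow, 53.8 and 57.1 in HFD and 495 and 189.7 in candesartan-treated mice, with both treated mice above all chow and untreated HFD mice. Its difference from chow was 3.66 with candesartan and 1.19 with HFD, and candesartan minus HFD was 2.47 (0.93 to 4.0, unadjusted p = 0.00565). Kappa segments are alike in sequence, so its probes may read others. F10, coagulation factor X, rose by 1.52 (HFD 1.16), Nostrin, which moves nitric oxide synthase inside cells, by 1.42 (1.10), Susd3, a membrane protein, by 1.23 (1.11), and Dennd4b, an exchange factor for Rab proteins, by 1.14 (0.56). Nostrin lost the call whichever chow, HFD or candesartan array was left out, F10 without chow array 2, HFD array 1 or 2 or candesartan array 1 or 2, and Susd3 without chow array 1, HFD array 1 or 2 or candesartan array 1 or 2. Igkv6-20 lost the call without chow array 2 or candesartan array 1 or 2, and Dennd4b without chow array 1 or candesartan array 1 or 2 (limma adjusted p then 0.0564 to 0.258).

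Among the falls of this class, Prom1 measured 263 and 143 in chow, 42.5 and 46.4 in HFD and 38.5 and 31.8 in candesartan-treated mice. Clic6, a chloride channel protein, measured 62.2 and 80.9 in chow, 42.8 and 43.9 in HFD and 16.3 and 30.9 in candesartan-treated mice and fell by 1.66, beside −0.71 with HFD (candesartan minus HFD −0.95, −1.86 to −0.04, unadjusted p = 0.0421). Timd4, the phosphatidylserine receptor of resident macrophages, measured 75.4 and 85.5 in chow, 40.3 and 41.4 in HFD and 31.3 and 24.7 in candesartan-treated mice. Treated mice were the lowest and chow mice the highest, with a fall of 1.53 (adjusted p = 0.0245) and −0.97 in HFD (0.0959). Ly6g6c, a GPI-anchored protein, fell by 1.48, although its other probe set was 0.47 higher without a call. Ttll5, a tubulin-modifying enzyme, fell by 1.28 (−0.53 in HFD), and Id1, an inhibitor of basic helix-loop-helix factors, by 1.13 (−0.79). Prom1, Clic6, Timd4 and Ly6g6c lost the call whichever chow, HFD or candesartan array was left out, Ttll5 without chow array 1 or 2 or candesartan array 1 or 2, and Id1 without chow array 1 or candesartan array 1 or 2 (limma adjusted p then 0.0506 to 0.282).

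**Figure D5:**
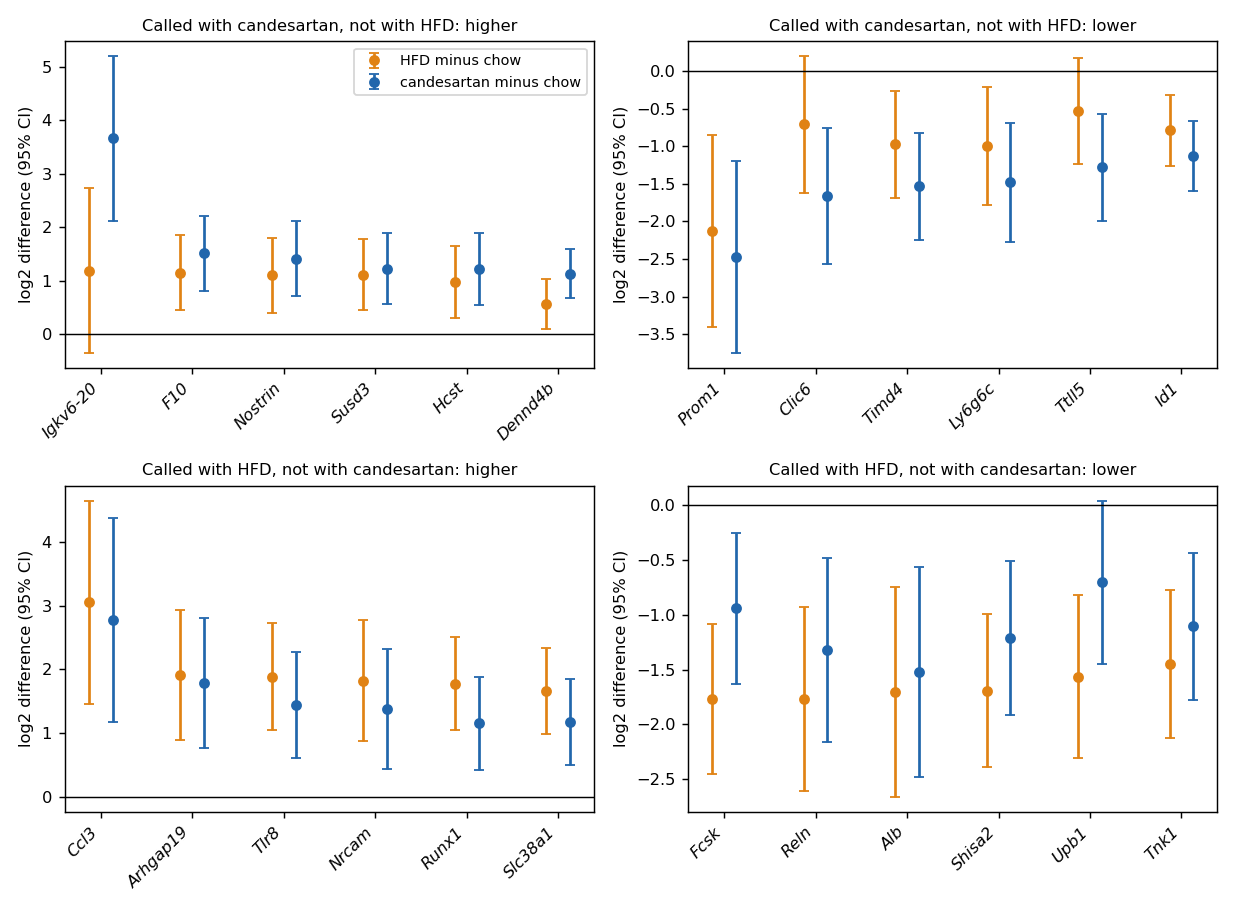
Log2 difference from chow with HFD alone (orange) and with candesartan (blue), with 95% confidence intervals from limma, for the genes with the largest changes among those called in only 1 of the comparisons. The intervals of the 2 comparisons overlap for every gene drawn, and both use the same chow mice.

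The 262 genes called with HFD alone and not with candesartan had the same direction at a smaller size in the candesartan medians, a gap that their choice by HFD values also produces. The 111 higher ones had a median of 0.98 with HFD and 0.72 with candesartan, and the 151 lower ones −0.86 and −0.64. With candesartan, 103 of the 111 and 135 of the 151 had an unadjusted p under 0.05. In the direct comparison 20 of the 262 had an unadjusted limma p under 0.05, against 6 of the 647 that remained and 1.25% of all genes. The candesartan and HFD arrays did not overlap for 58.4% of the 262 and 24.0% of the 647, beside 33.4% of all genes. These figures follow in part from the choice of both classes by their HFD and candesartan values. The number was 5 and 3 without HFD array 1 or 2, 117 without chow array 1, 419 without candesartan array 2, and 433 and 442 without telmisartan array 1 or 2.

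The largest HFD rises of this class included Ccl3, given above, Tlr8, an endosomal RNA sensor (1.88 in HFD, 1.44 with candesartan), Runx1, a haematopoietic transcription factor (1.78 and 1.15), Nrcam, an adhesion molecule (1.82 and 1.38), and Slc38a1, a glutamine transporter (1.66 and 1.17). For the genes after Ccl3, in that order, the candesartan adjusted p-values in limma were 0.0539, 0.0733, 0.0914 and 0.0521. The largest HFD falls included Fcsk, the fucose kinase, at 190.4 and 130.3 in chow, 58.9 and 36.3 in HFD and 85.1 and 79.0 in candesartan-treated mice. Treated mice lay between the untreated HFD mice and the chow mice, with −1.77 in HFD, −0.94 with candesartan, and candesartan minus HFD of 0.83 (0.14 to 1.51, unadjusted p = 0.0239). Upb1, an enzyme of pyrimidine breakdown, measured 66.7 and 81.0 in chow, 25.1 and 24.7 in HFD and 52.6 and 38.9 in candesartan-treated mice, with −1.56 in HFD and −0.70 with candesartan (candesartan minus HFD 0.86, 0.12 to 1.61, unadjusted p = 0.0283). Alb, albumin, was at −1.70 in HFD and −1.52 with candesartan, Reln, the matrix protein reelin, at −1.77 and −1.32, Shisa2 at −1.69 and −1.21, and Tnk1, a tyrosine kinase, at −1.45 and −1.10.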

How the data were processed

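Total RNA from the epididymal fat of 8 mice was hybridized to 1-colour Affymetrix arrays with 45101 probe sets. The authors deposited 1 signal intensity on a linear scale for each probe set, from the array maker's analysis software, per the labels. The version of its algorithm, its scaling and scan dates were not stated in the sources. Each array was scaled to a common 2%-trimmed mean, lower signals were raised to a floor at the 20th percentile (6.68), and values were log2-transformed. The 22519 probe sets in the upper part of mean log2 signal (50th percentile and above) entered, and each gene was represented by its brightest probe set with 1 gene symbol, which gave 11232 genes. Names came from the array maker's annotation as given by GEO, and 932 probe sets with several symbols and 9160 unlisted ones were left out. The model was limma 3.58.1 in R 4.3.3 with 4 group means over all 8 arrays, an intensity trend and 4 residual degrees of freedom; tests were two-sided. It was also run on simulated data, whose outcome is not given here and is not used as support. Figures were drawn with Python 3.11.15 and matplotlib 3.10.9.

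The number of arrays limits the precision. The replicate numbers paired the mice weakly at most, as the differences between arrays 1 and 2 correlated between groups at −0.0414 to 0.206. The gene lists, the comparison and the rules for naming genes were chosen with earlier results of these data known. Named were the 10 largest called rises and falls, the 6 largest of each direction in each class called in 1 comparison only (arrays without overlap and no clone names), the 3 members of each list with the smallest p, and Adgre1, Itgax, Cd68, Mrc1, Arg1, Cd163, Retnla, Ccl2, Tnf, Adipoq, Lep, Pparg, Slc2a4, Agt and Agtr1a. Other called list members were named after their values were seen. The alternatives tried were other scalings, floors, filters, moderation, probe set rules and sets of arrays, and leaving out each array. Of 849 list entries, 683 were tested. Promoters were 300-base windows from RefSeq. No proteins or genome were used here.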

Additional observations from a re-analysis of the deposited data

How the results depend on the processing

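All 740 calls kept their direction with each array left out, and the 94 named called genes in all settings run. These genes were chosen by their differences on the same arrays, so a kept direction says little. The calls between candesartan and chow ranged from 117 to 1315 with 1 array left out (higher 105 to 785, lower 12 to 531). Under the same omissions the diet calls that remained ranged from 116 to 1169, those called with candesartan and not with HFD from 1 to 230, and those called with HFD and not with candesartan from 3 to 442; the lowest follow from 1 array in a group. Without a filter on dim genes there were 163 calls (118 higher, 45 lower), with 127 that remained, 36 with candesartan and not HFD, 47 with HFD and not candesartan, and 6 between candesartan and HFD (Ifna2, Obp2a, Pate14, Muc1, Rapsn and Hamp2, all too dim for the main test). With the chow, HFD and candesartan arrays only there were 1313 (783 higher, 530 lower), with 1165, 148 and 441 in those classes. Median centring gave 83 lower calls and 110 with HFD and not candesartan. The cause was not tested for the scaling. Of the 94 named called genes, 67 lost the call without the filter, 17 with median centring and 17 without the intensity trend. Some called whichever array was left out were lost without the filter. These included Ptges, Egr2, Il7r, Cyba, Atf3, Slc11a1, Pvalb, Zranb3, Il13ra2 and Gpr50. A replicate block gave 973 calls, 739 of the 740 among them, and 409 genes with HFD and not candesartan. With the median over a gene's probe sets, Cyp2f2 (−2.35), Ttll5 (−1.05), Irf8 (0.99), Hibch (−0.55), Hspa5 (0.34), Ly6g6c (−0.50) and Irf5 (0.68) were not called with candesartan, nor Fcsk (−0.95) with HFD (limma adjusted p 0.0506 to 0.326). A lone array is assumed to vary like the other groups. Under the other settings the numbers of calls and of genes in each class stayed within 1.5 times. Arrays give no reads, and dim genes near the floor have compressed folds.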

Other observations

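The genes here were singled out after their values were seen. Immunoglobulin genes did not all stand on the same side of untreated HFD fat. Igha, the constant region of immunoglobulin A, measured 457 and 378 in chow, 1025 and 978 in HFD and 419 and 237 in candesartan-treated mice. It was called with HFD alone (1.27, adjusted p = 0.0230) and was at −0.40 with candesartan, so that candesartan minus HFD was −1.67 (−2.26 to −1.08). Its unadjusted p of 0.000151 in limma did not pass the adjustment. Igkv6-20, the kappa segment described above, was higher in both treated mice than in both untreated HFD mice. Among the other genes called with HFD and not with candesartan, the smallest unadjusted limma p-values of candesartan minus HFD after Igha were those of Rap2b, a small GTPase (−0.53, −0.86 to −0.19), Cklf, a chemokine-like factor (−0.66, −1.08 to −0.23), and Lbh, a transcriptional cofactor (−0.79, −1.31 to −0.28). Among those called with candesartan and not with HFD the smallest in limma were, after Igkv6-20, Cd274, the checkpoint ligand PD-L1 (0.48, 0.15 to 0.81), and Bcam, a laminin receptor (−0.46, −0.77 to −0.14).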
